A study of Mus musculus with 3 samples.

Results

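Expression of 9 genes that mark the balance between epithelial and mesenchymal cells was followed through 3 single-cell libraries of mouse cells. They were chosen by name, with earlier results of these data known. All 9 were listed in each library, among 27755 genes in the D10 culture and the E14.5 tail and 25936 in D6 PM. They comprise 3 cadherins (Cdh1, Cdh2 and Cdh11), the epithelial surface protein Epcam, the intermediate filament Vim, and the transcriptional repressors Snai1, Snai2, Zeb1 and Zeb2.

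The D6 PM library came from embryoid bodies made from mESCs of ScxGFP reporter mice, in which GFP follows the tendon gene Scx, and directed to paraxial mesoderm with the BMP inhibitor LDN-193189 (500 nM, from day 0 to day 6) and the Wnt agonist CHIR (5 µM, from day 2 to day 6). The D10 culture received in addition TGFβ1 (10 ng/mL), the smoothened agonist SAG (100 nM) and FGF2 (10 ng/mL) from day 6 to day 10, and was grown as a monolayer. The E14.5 tail came from embryos of that stage from ScxGFP mice on the C57BL6 strain, without culture. Its clusters serve as the embryonic side of the comparison with culture clusters of the same name. Cells were dissociated with trypsin and collagenase and dead cells were removed. Each condition had 1 library, so that no test between conditions was possible and no p-value was computed, and the number of embryos or cultures behind a library was not given.

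Cell numbers were 7821 for the D10 culture, 2052 for the E14.5 tail and 5954 for D6 PM, and the median cell carried 5622, 13512 and 8171 UMIs (unique transcript tags), respectively. Between 3 and 10 cell barcodes were shared by any pair of libraries. The libraries hold 33 cluster codes in all, of which 30 had at least 20 cells and were used. Culture and tail codes were assigned jointly, while D6 PM codes are separate. The 6 codes of D6 PM are fewer than the clusters that the study draws for this library. They were used as deposited, and how the sets correspond was not determined. Clusters were called tendon-like, cartilage-like and so on where their marker genes allowed it, and 10 of the 30 stayed unnamed because the leading genes were those of several cell types or because the cells held few UMIs. In particular, code 3 held pluripotent-like cells in the culture and cells with epidermal keratin and neutrophil genes in the tail (leading genes S100a9, Gm5483 and Stfa2l1), and code 8 held endoderm-like cells in the culture (leading genes Gcg, Iapp and Pyy) and epidermis-like cells in the tail, so that these codes were not compared across libraries.

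During an epithelial-mesenchymal transition, cells that adhere to their neighbours through E-cadherin lose that contact and gain motility. E-cadherin is encoded by Cdh1, N-cadherin by Cdh2, and cadherin-11, typical of loose mesenchyme, by Cdh11. The zinc finger proteins of the Snail family (Snai1 and Snai2) and Zeb family (Zeb1 and Zeb2) bind E-box sequences and repress Cdh1 and other epithelial genes. Cells of the early embryo go through this transition when mesoderm forms at gastrulation, and again when sclerotome, the source of axial tendon and cartilage, leaves the epithelial somite.

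Promoter sequences were at hand for 4 of the 9 genes (Epcam, Snai1, Vim and Zeb2; RefSeq, GRCm38.p6). Of these, 3 are shown because their genes stand at opposite ends of the pattern described here: an epithelial gene, a repressor, and a mesenchymal filament gene. Each line gives the 250 bases before the annotated start, 5′ to 3′ on the strand of the gene, and capitals mark the E-boxes CACCTG and CAGGTG, which are the 2 strands of 1 motif. The windows lie at chr17:87635729-87635978 (Epcam, plus strand), chr2:167537945-167538194 (Snai1, plus strand) and chr2:13574061-13574310 (Vim, plus strand).
Epcam: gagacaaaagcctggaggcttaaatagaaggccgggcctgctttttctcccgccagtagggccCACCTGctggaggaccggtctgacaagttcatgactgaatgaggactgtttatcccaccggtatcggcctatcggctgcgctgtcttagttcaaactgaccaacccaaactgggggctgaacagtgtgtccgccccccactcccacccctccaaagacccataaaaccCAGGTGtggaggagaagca
Snai1: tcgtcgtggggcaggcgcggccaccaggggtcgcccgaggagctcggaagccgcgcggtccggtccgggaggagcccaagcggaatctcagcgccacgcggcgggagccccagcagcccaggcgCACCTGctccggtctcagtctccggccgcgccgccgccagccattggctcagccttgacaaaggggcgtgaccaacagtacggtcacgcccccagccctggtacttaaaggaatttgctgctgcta
Vim: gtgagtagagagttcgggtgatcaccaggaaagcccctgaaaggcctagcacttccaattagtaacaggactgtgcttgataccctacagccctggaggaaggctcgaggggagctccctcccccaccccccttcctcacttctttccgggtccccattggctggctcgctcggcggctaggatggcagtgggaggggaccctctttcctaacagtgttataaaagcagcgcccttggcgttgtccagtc
The Epcam window held 2 E-boxes, whose first bases lie 187 and 19 bases before the start, and the Snai1 window held 1, at 126 bases. No such letters were found in the Vim window or in the 4 windows listed for Zeb2. Among all 32851 windows of the same length, 5657 (17.2%) held at least 1 of these E-boxes. A match describes the letters of a window, and no binding was measured here.

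Cdh1 and Epcam were high in the same kinds of cluster in all 3 libraries. Values are given as CPM, the UMIs of a gene per 1000000 UMIs of the cluster, with exact 95% intervals that cover counting error only. In the D10 culture, Cdh1 was highest in endoderm-like cells (code 8, 155 cells; 238 CPM, interval 209 to 270), followed by pluripotent-like cells (code 3; 114 CPM, 108 to 120). It was 1.09 CPM in tendon-like cells (code 1, 2964 cells), 0.840 CPM in proliferating tendon-like cells (code 2) and 1.20 CPM in cartilage-like cells (code 4). In the E14.5 tail, Cdh1 reached 173 CPM (154 to 193) in epidermis-like cells (code 8) and 80.9 CPM in the unnamed code 3, but rested on 1 UMI among 685 tendon-like cells. In D6 PM, it was 119 CPM in endoderm-like cells (code 1), 119 CPM in proliferating endoderm-like cells (code 3), 61.0 CPM in pluripotent-like cells (code 2) and 5.92 CPM in paraxial mesoderm-like cells (code 4).

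Epcam, an adhesion protein of most simple epithelia and of pluripotent cells, was high in the same clusters, but its order was not always that of Cdh1. It was 1563 CPM in endoderm-like and 786 CPM in pluripotent-like cells of the culture, and 593 CPM (557 to 630) in epidermis-like cells of the tail, where code 3 held 576 CPM (534 to 621), so that Epcam did not separate these 2 clusters as Cdh1 did. In D6 PM it was highest in proliferating endoderm-like cells (1358 CPM, 1332 to 1384), above the 1097 CPM (1082 to 1112) of the other endoderm-like cells, and 426 CPM in pluripotent-like cells. Tendon-like cells held 11.9 CPM in the culture (10.3 to 13.7) and 11 CPM in the tail (9.02 to 13.2), and these intervals overlap.

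**Figure D1:**
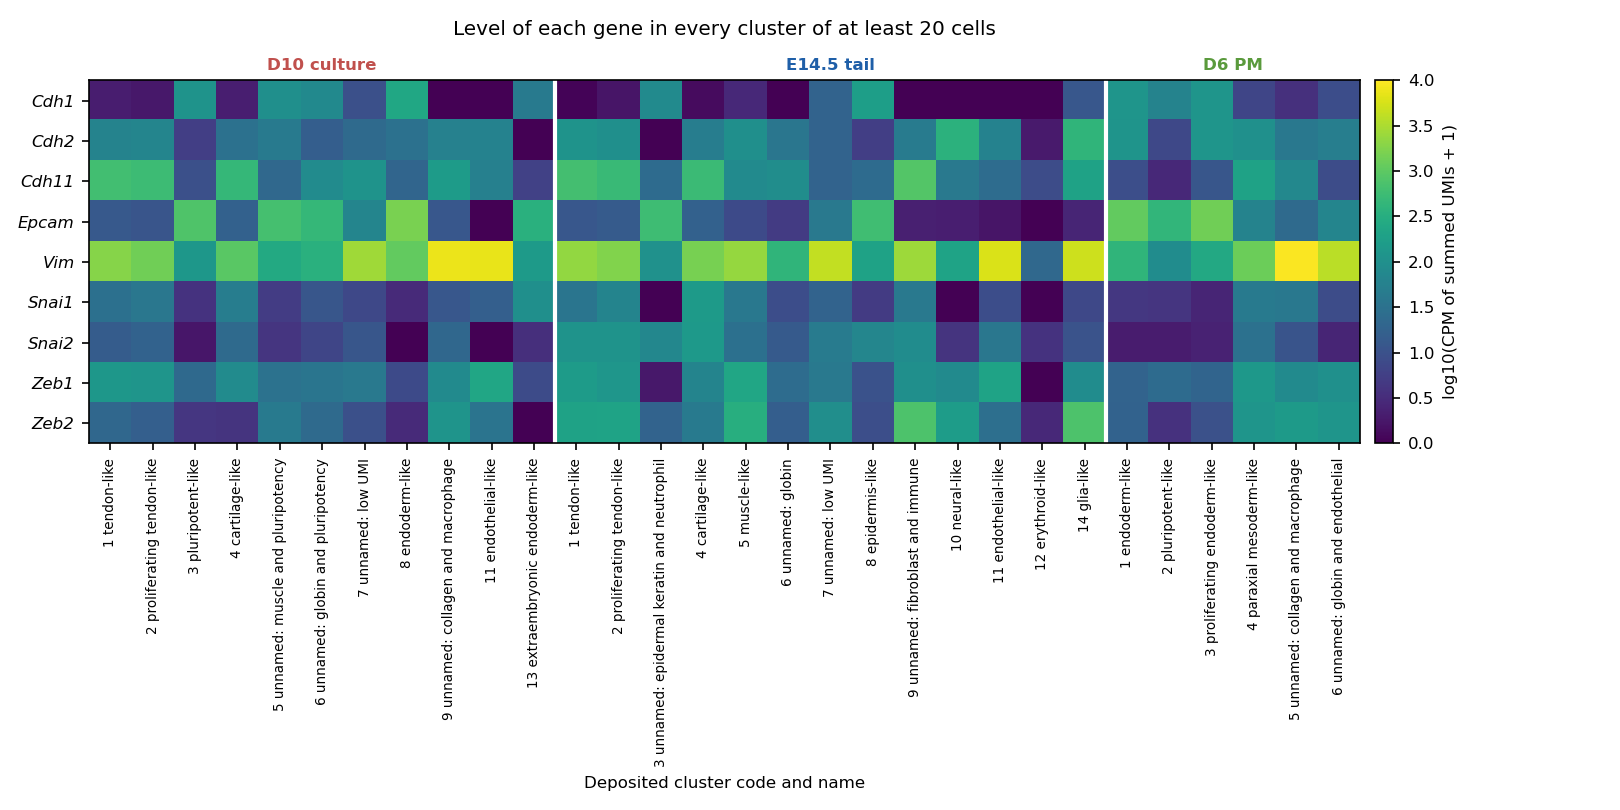
Level of each of the 9 genes (rows) in each cluster of at least 20 cells (columns, grouped by library), as the log10 of CPM plus 1. Cdh1 and Epcam are high in the pluripotent-like, endoderm-like and epidermis-like columns, where Cdh11 is low, while Snai2 and Zeb2 are lower in the tendon-like columns of the D10 culture than in those of the E14.5 tail.

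The low Epcam level of tail connective cells was set beside that of other epidermal genes in the same cells, since free RNA carries UMIs of abundant genes into droplets of other cells. In tail tendon-like cells Epcam stood at 1.85% of its level in epidermis-like cells, while 7 other epidermal genes stood between 0.0572% (Cdh1) and 0.314% (Perp), with Krt14, a keratin of basal epidermis, at 0.170%. In tail cartilage-like cells these values lay closer together, with Epcam at 2.76%, Krt15 at 2.30%, Trp63 at 2.04% and Krt14 at 0.952%. After thinning, their Epcam level was 5.56 CPM in place of 16.3 CPM (537 and 593 CPM in epidermis-like cells). Proliferating tendon-like cells of the tail held 12.9 CPM of Epcam (2.18% of the epidermis-like level, with Krt14 at 0.472%), and 5.38 CPM after thinning. Muscle-like cells held 6.92 CPM of Epcam (1.17% of the epidermis-like level), beside Krt14 at 1.34% and Trp63 at 3.86%. Their Epcam level was 1.49 CPM without the 5 called doublets among 121 cells, and 9.17 CPM after thinning. Among the other tail clusters Epcam was 40.4 CPM in code 7 (cells of few UMIs, with Krt14 at 23.5%), 3.94 CPM in the globin-rich code 6, and between 0 and 1.57 CPM in codes 9, 10, 11, 12 and 14. In culture tendon-like cells Epcam stood at 1.52% of its level in pluripotent-like cells, Pou5f1 at 1.21%, Cdh1 at 0.955%, Dppa5a at 0.574%, Tdgf1 at 0.491% and Krt18, which endoderm-like cells also hold, at 7.76%. In paraxial mesoderm-like cells of D6 PM Epcam stood at 5.47% of its level in endoderm-like cells, close to Cdh1 (4.97%), Krt18 (4.73%), Sox17 (4.53%), Krt8 (4.39%) and Cldn6 (4.10%), with Rbp4 at 3.35%. These UMIs were not spread evenly over the cells. At equal depth, the 43 of 606 paraxial mesoderm-like cells with an Epcam UMI held 341 CPM of 7 summed endoderm markers and 256 CPM of 5 pluripotent markers, against 17.8 and 45.0 CPM in the other 563 cells, and without the 22 called doublets among the 700 cells of this cluster the Epcam level was 18.2 CPM in place of 60.0 CPM. The part of free RNA in these levels was not tested further.

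The balance of E-cadherin and N-cadherin separated most clusters almost completely. UMIs of a 3′ assay count transcript ends, so that no correction for gene length was needed. The Cdh1 share of all Cdh1 and Cdh2 UMIs was 96.2% (95 to 97.1) in pluripotent-like cells and 88.7% (84.4 to 92.2) in endoderm-like cells of the D10 culture. It was 1.78% (1.06 to 2.80) in tendon-like, 1.25% (0.574 to 2.36; 0.424% without called doublets) in proliferating tendon-like and 3.88% (1.07 to 9.65) in cartilage-like cells, and these 3 intervals overlap. In the E14.5 tail, it was 97.4% (95 to 98.9) in epidermis-like cells and 0.0875% (0.00222 to 0.486) in tendon-like cells. In the neural-like cluster of the tail, 635 Cdh2 UMIs and no Cdh1 UMI were counted.

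Intermediate shares were found in unnamed clusters of the culture, with 70.5% (67.4 to 73.4) in code 5, which held muscle and pluripotency genes, 84.0% (77.3 to 89.4) in code 6, and 26.7% (7.79 to 55.1) from 15 UMIs in code 7.

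In D6 PM, both endoderm-like clusters were intermediate. The Cdh1 share was 90.6% (88.4 to 92.5) in pluripotent-like cells and 5.53% (3.90 to 7.57) in paraxial mesoderm-like cells, but 50.7% (49.2 to 52.2) in endoderm-like cells and 49.1% (46.8 to 51.4) in proliferating endoderm-like cells. Leaving out called doublets gave 1.98% in paraxial mesoderm-like cells.

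**Figure D2:**
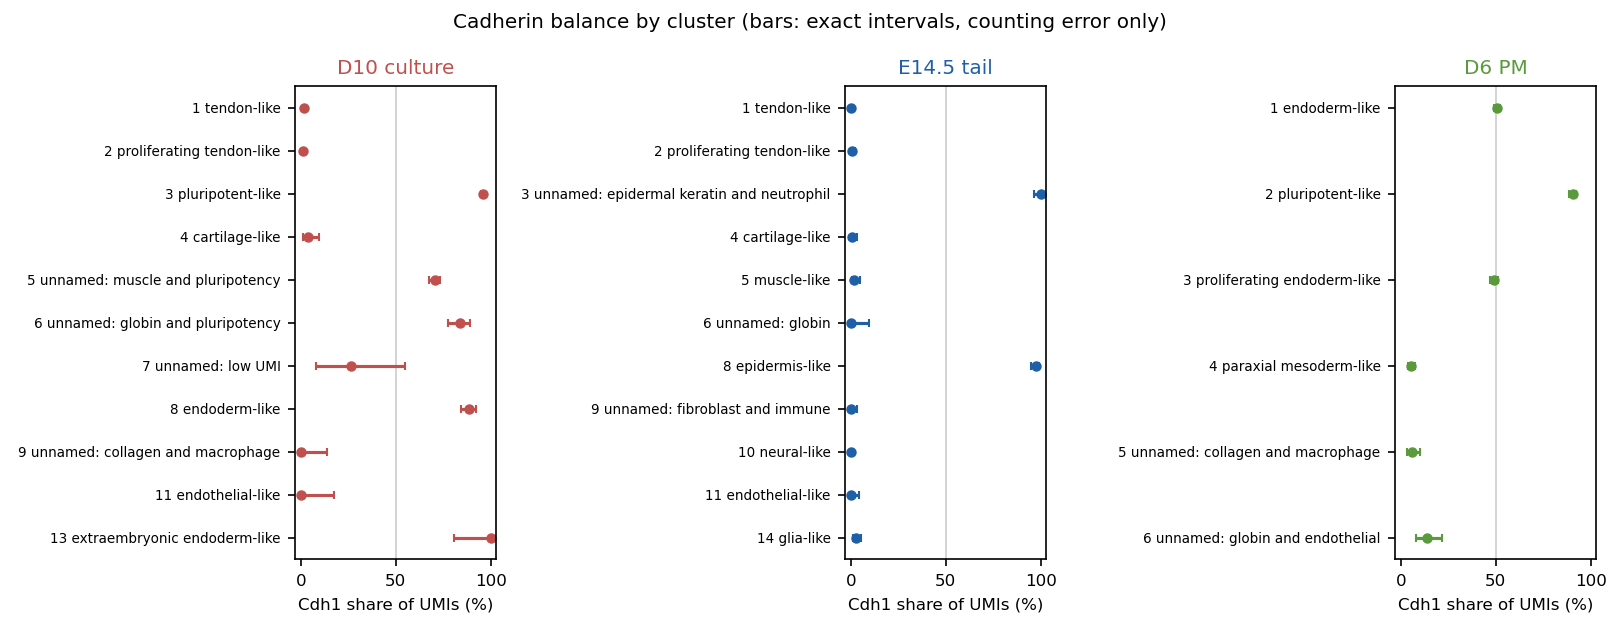
Cdh1 share of the summed Cdh1 and Cdh2 UMIs (x axis, percent) in each cluster with at least 10 such UMIs, for each library, with exact 95% intervals for counting error. Most clusters lie near 0% or near 100%, while both endoderm-like clusters of D6 PM lie near 50% and codes 5, 6 and 7 of the D10 culture between 26.7% and 84.0%.

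Whether single endoderm-like cells of D6 PM held both cadherins was examined after thinning every cell to 3000 UMIs and leaving out shallower cells. Of 2091 thinned endoderm-like cells, 478 held Cdh1, 545 held Cdh2 and 89 held both. The share with both was 4.26% (3.43 to 5.21), against 5.96% if the 2 genes were drawn independently, and it was 15.2% without thinning. Among proliferating endoderm-like cells the share with both was 5.34% (3.79 to 7.28), against 6.23%. For code 1 the interval lies below the product of the 2 shares. As a background at the same depth, Cdh1 was found in 1.16% of 606 paraxial mesoderm-like cells and Cdh2 in 1.53% of 918 pluripotent-like cells (3.14% and 5.39% without thinning), and both in 0.165% and 0.545% of these cells. Median depths were 7406 UMIs for code 1, 7709 for paraxial mesoderm-like and 11208 for pluripotent-like cells. Whether droplets with both came from cells that express both was not tested.

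Endoderm-like cells of D6 PM with and without an Epcam UMI differed in several members. Of the 2091 thinned cells, 1411 held an Epcam UMI and 680 did not. Vim was found in 37.8% of cells with an Epcam UMI and in 77.9% of cells without one (interval 74.6 to 81.0). Zeb1 was found in 1.70% and 12.2%, Zeb2 in 1.35% and 11.9%, and Cdh2 in 21.3% and 36.0%, respectively. Cdh1 went the other way, with 31.3% and 5.44%. The summed thinned level of 7 endoderm markers was 1651 CPM in cells with an Epcam UMI and 787 CPM in those without. That of 6 paraxial mesoderm markers was 63.3 and 106 CPM, and that of 6 tendon markers 22.9 and 116 CPM. Like the endoderm markers, 5 trophoblast (273 and 85.3 CPM), 5 neural (106 and 83.3 CPM) and 5 fibroblast markers (24.6 and 14.2 CPM) were higher with an Epcam UMI. Whether code 1 holds a second cell type that accounts for these differences was not tested.

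Proliferating endoderm-like cells of D6 PM showed the same direction for these genes, with Vim in 27.3% and 64.5% and Zeb1 in 1.57% and 13.1% of cells with and without an Epcam UMI. In pluripotent-like cells of the same library the shares were close, since Vim was found in 16.7% of 538 cells with an Epcam UMI and 17.4% of 380 cells without, and Zeb1 in 5.02% and 7.63%. In pluripotent-like cells of the D10 culture Vim was found in 27.1% and 20.7%. Cdh1 differed there, with 32.0% (29.0 to 35.2) and 20.7% (15.0 to 27.2). Code 5 of the culture, whose leading genes were those of muscle and pluripotent cells, again split, with Vim in 25.4% and 62.4% and Cdh2 in 6.42% and 27.4%. There the summed thinned level of 5 muscle markers was 13.4 CPM in cells with an Epcam UMI and 1335 CPM in cells without.

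**Figure D3:**
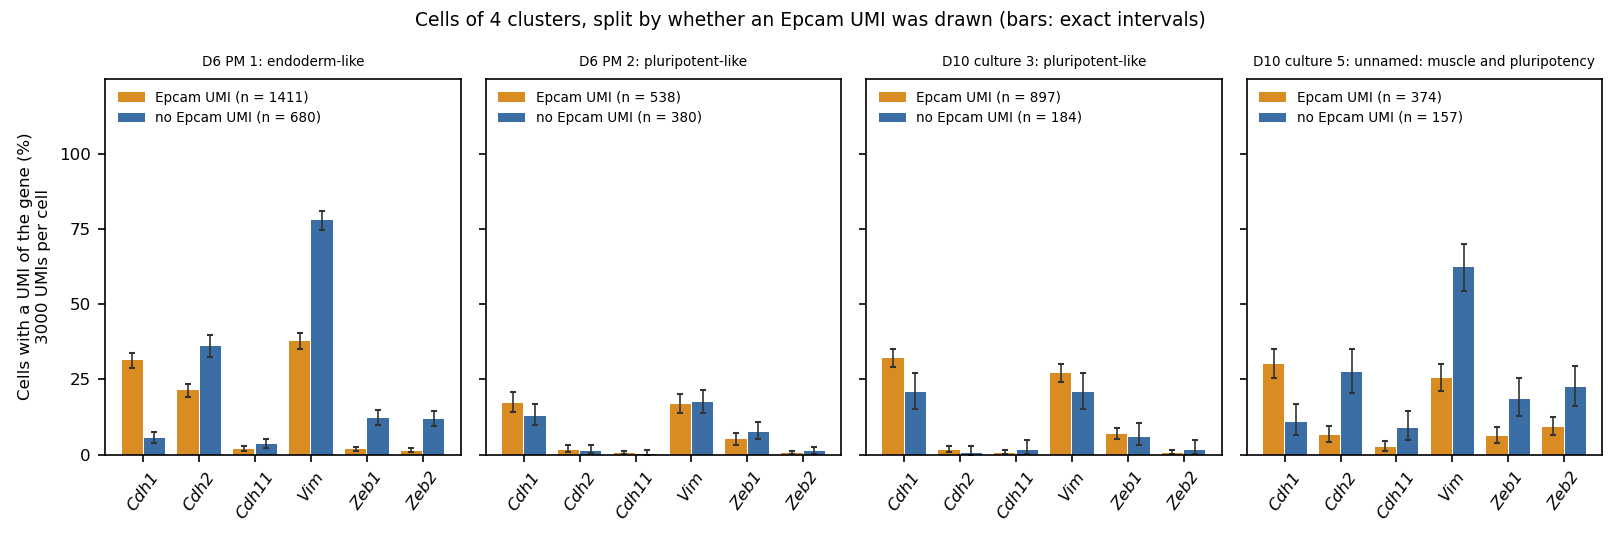
Share of cells with at least 1 UMI of each gene (y axis, percent), after thinning to 3000 UMIs per cell, in cells of 4 clusters with an Epcam UMI (orange) and without (blue), with exact 95% intervals for counting error. Vim, Zeb1 and Zeb2 differ between the bars in D6 PM endoderm-like cells and in code 5 of the culture, but overlap in pluripotent-like cells of either day.

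Vim was the most abundant of the 9 genes in most mesenchymal clusters, but it was also found in endoderm-like cells of the culture. It was 1875 CPM in tendon-like cells of the culture and 2266 CPM in those of the tail. The highest levels were those of unnamed clusters with collagen and macrophage genes (9589 CPM in D6 PM and 7740 CPM in the culture) and of endothelial-like cells (7423 CPM in the culture and 5998 CPM in the tail). Pluripotent-like cells held 128 CPM in the culture and 88.2 CPM in D6 PM.

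Endoderm-like cells of the D10 culture held 1112 CPM of Vim beside their high Epcam level, more than the 938 CPM of cartilage-like cells. After thinning, 115 of 148 such cells held both Epcam and Vim (77.7%, interval 70.1 to 84.1), and 78.4% was the product of the 2 shares. In epidermis-like cells of the tail, 19 of 82 cells held both (23.2%, 14.6 to 33.8), and 18.3% was the product. As a background at the same depth, a Vim UMI was found in 7.20% (3.35 to 13.2) of erythroid-like and 23.4% (16.6 to 31.3) of neural-like cells of the tail, against 26.8% (17.6 to 37.8) of epidermis-like cells, so that Vim in epidermis-like cells was not set apart from that in neural-like cells. Without thinning these shares were 15.6%, 53.3% and 56.1%, at median depths of 8392, 11811 and 20468 UMIs. In the culture a Vim UMI was found in 81.8% (74.6 to 87.6) of endoderm-like and 26.0% (23.4 to 28.7) of pluripotent-like cells (87.1% and 49.8% without thinning, at median depths of 6129 and 10370 UMIs). Snai2 had no UMI in the 155 endoderm-like cells of the culture, Snai1 and Zeb2 had 2 UMIs each, and Zeb1 had 7. Vim was therefore found in the endoderm-like cells of the culture at a level near that of mesenchyme, while the 4 repressor genes were near 0.

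Cdh11 was the cadherin of tendon-like and cartilage-like cells. In the culture it reached 623 CPM in tendon-like, 544 CPM in proliferating tendon-like and 462 CPM in cartilage-like cells, and in the tail 640, 522 and 528 CPM. It made up 82.6% of all cadherin UMIs in culture tendon-like cells, in which Cdh2 made up 7.94%. The corresponding shares in tail tendon-like cells were 63.3% and 11.2%. The highest level of any cluster was 859 CPM, in a tail cluster with fibroblast and immune genes. In D6 PM, Cdh11 was 200 CPM in paraxial mesoderm-like cells, where it made up 47.9% of cadherin UMIs and Cdh15 (M-cadherin, of the muscle lineage) 14.6%.

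In the tail, Cdh2 was highest outside the connective tissues. Glia-like cells of the tail held 414 CPM (365 to 467) and neural-like cells 376 CPM (348 to 407), with overlapping intervals, against 113 CPM in tail tendon-like cells. In the culture it was highest in proliferating tendon-like (66.3 CPM) and tendon-like cells (59.9 CPM), but their intervals overlap those of endothelial-like cells (57.6 CPM) and code 9 (56.9 CPM). Further cadherins made up a large part of the cadherin UMIs in other clusters. Endothelial-like cells held Cdh5 (VE-cadherin) as 78.7% of cadherin UMIs in the culture and 90.5% in the tail, and muscle-like cells of the tail held Cdh15 as 40.0%. In endoderm-like cells of the culture, Cdh6 made up 30.4% next to 46.4% for Cdh1.

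The 4 repressor genes did not share one pattern. Zeb1 was broadly found in mesenchymal, endothelial-like and muscle-like clusters, and in glia-like and neural-like cells of the tail, where it was above the level of cartilage-like cells. It was 230 CPM in endothelial-like and 128 CPM in tendon-like cells of the culture. Muscle-like cells of the tail held 235 CPM and paraxial mesoderm-like cells of D6 PM 134 CPM of Zeb1. Zeb1 was also found in pluripotent-like cells, at 22.3 CPM in the culture and 24.4 CPM in D6 PM. Zeb2 was highest in glia-like cells of the tail (757 CPM, 691 to 828) and in the tail cluster with fibroblast and immune genes (755 CPM, 720 to 790). In both libraries it was lower in cartilage-like than in tendon-like cells, at 41.4 against 202 CPM in the tail and 3.01 against 20.3 CPM in the culture.

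Snai1 was highest in cartilage-like cells of the tail (151 CPM, 139 to 165), at 4.32 times the 35.1 CPM of tail tendon-like cells (ratio interval 3.76 to 4.96). In the culture the same ratio was 1.71 (1.42 to 2.05), from 49.0 and 28.6 CPM. The highest Snai1 level of the culture was found in 43 extraembryonic endoderm-like cells (code 13; 97.2 CPM, 69.4 to 132, 40 UMIs), which also held 340 CPM of Epcam and no Zeb2 UMI.

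Snai2 departed from the other repressor genes in 2 tail clusters with high Epcam, the epidermis-like cells and code 3. The leading genes of code 3 are mostly those of neutrophils, but it also held epidermal genes at high levels. Its Krt14 was 2687 CPM and its Trp63 274 CPM, against 2446 and 311 CPM in epidermis-like cells. Snai2 was 68.3 CPM (56.5 to 81.7) in epidermis-like cells and 70.0 CPM (55.9 to 86.7) in code 3, against 111 CPM in tail tendon-like cells. In these 2 clusters Snai1 was 4.02 and 0 CPM, Zeb1 9.18 and 0.834 CPM, and Zeb2 8.03 and 17.5 CPM. After thinning, 9 of 82 epidermis-like cells held both Snai2 and Epcam (11%, 5.14 to 19.8), against 9.99% for independent draws. At this equal depth a Snai2 UMI was found in 14.6% of epidermis-like cells (46.3% without thinning) and in 0 to 6.42% of the cells of the named clusters outside connective tissue and epidermis. These were muscle-like (6.42%, 2.62 to 12.8), endothelial-like (6.06%, 1.68 to 14.8), neural-like (0.730%, 0.0185 to 4.0), erythroid-like (0%, 0 to 2.91) and glia-like cells (0%, 0 to 9.49). The interval of epidermis-like cells (7.80 to 24.2) overlaps those of muscle-like, endothelial-like and glia-like cells. Summed over all UMIs, Snai2 was 29.5 CPM (22.8 to 37.7) in muscle-like and 38.1 CPM (28.6 to 49.7) in endothelial-like cells, below the interval of epidermis-like cells, and between 2.82 and 9.41 CPM in the other 3.

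**Figure D4:**
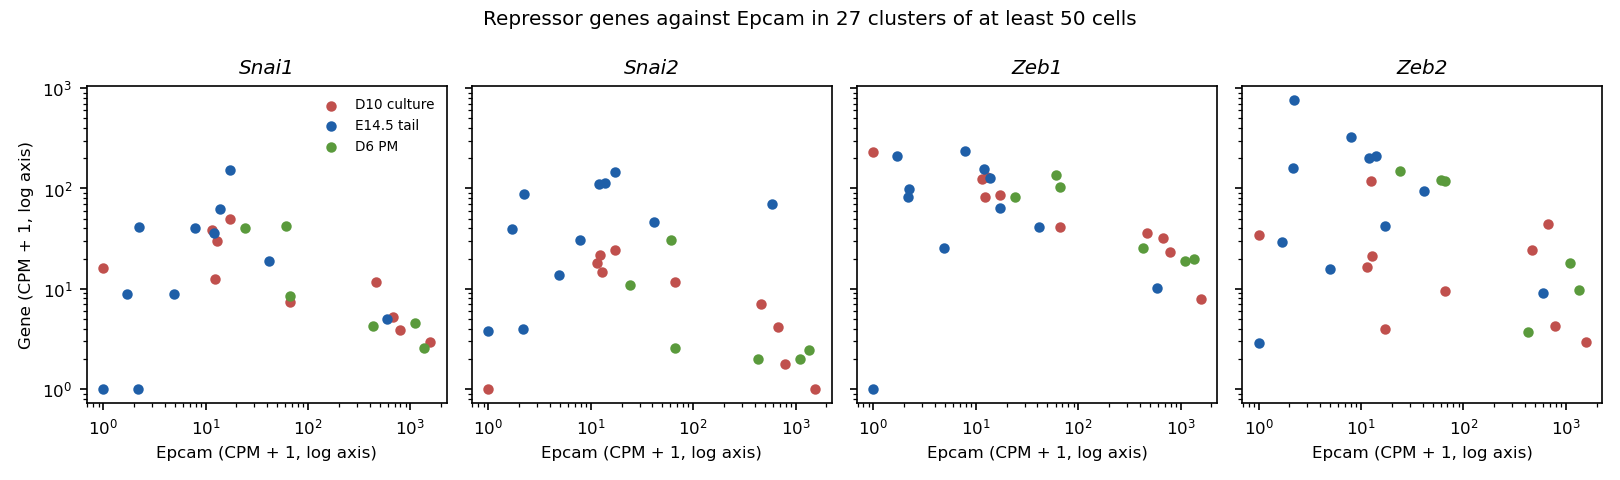
Level of each repressor gene (y axis) against that of Epcam (x axis), both as CPM plus 1 on log axes, in the 27 clusters of at least 50 cells, coloured by library. The 8 clusters above 100 CPM of Epcam hold at most 10.7 CPM of Snai1, 35.2 CPM of Zeb1 and 43.4 CPM of Zeb2, and at most 5.97 CPM of Snai2 except for tail epidermis-like cells at 68.3 CPM.

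Across the 27 clusters of at least 50 cells, levels were compared as log2(CPM + 1). Cdh1 and Epcam had a Pearson r of 0.95, and Cdh1 had negative r with each of the other 7 genes, from -0.32 with Cdh2 to -0.61 with Cdh11. Snai1 and Cdh11 had an r of 0.78, Snai1 and Snai2 0.70, Zeb1 and Zeb2 0.66, and Snai2 and Zeb1 0.39. These are descriptions, since the clusters share libraries and were made from the same counts. Of the 8459 genes that reached 50 CPM in a cluster, the 3 nearest to Cdh1 were Prss8, Esrp1 and Grb7 (r of 0.97 each). The nearest to Cdh11 were Lum, Dnm3os and Arhgef40 (0.93 to 0.95), those to Zeb2 were Cnrip1, Frmd4a and Cbfa2t3 (0.75 to 0.87), and those to Snai2 were Boc, Olfml3 and Cd248 (0.83 to 0.87). For Epcam these were Cdh1, Crb3 and Spint2 (0.94 to 0.95), for Vim Timp3, Ets1 and Cmtm3 (0.90 each), and for Zeb1 Cep85l, Gnb4 and Cep170 (0.89 each). Cdh2 and Snai1 had no gene above 0.86, with Dbn1 and Zcchc24 as the nearest. These lists depend on the measure. With Spearman's rho 2 of the 3 genes were kept for Zeb2, 1 for each of Cdh1, Cdh11, Epcam, Vim, Snai2 and Zeb1, and 0 for Cdh2 and Snai1, and with all 30 clusters 0 were kept for Vim and Snai1 and 1 or 2 for each other member.

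The comparison of culture and tail asks how near the mESC-derived tendon and fibrocartilage cells come to their embryonic counterparts. In tendon-like cells Cdh11, Epcam and Vim were near their tail levels, while the repressor genes Snai2 and Zeb2 were much lower in the culture. Zeb2 was 20.3 CPM in the culture and 202 CPM in the tail, 9.95-fold lower in the culture (8.87 to 11.2). Snai2 was 13.8 and 111 CPM, 8.07-fold lower (7.0 to 9.34). Of the 8 members at 10 CPM or more in either library, these 2 differed by at least 2-fold, against 20.7% of the 10251 genes that reached this level, with 12.9% lower in the culture and 7.77% higher. Both lay among the lowest ratios, at the 2.64th and 3.07th percentile. Of the leading genes of the tendon-like clusters, only Aspn was shared. The others included Lrrc17, Kcnk2 and Thbs4 in the culture and Myh11, Col6a6 and Osr1 in the tail. Whether both clusters hold the same kinds of connective cells was not tested.

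The other members stayed within 2-fold in tendon-like cells. Cdh11 was 623 and 640 CPM (ratio of culture over tail 0.974, interval 0.944 to 1.0), and Epcam 11.9 and 11 CPM (1.09, 0.859 to 1.39, but 0.891 without called doublets, 0.815 after thinning and 0.718 as the mean of CPM over cells). Zeb1 (0.833), Vim (0.828) and Snai1 (0.817) were slightly lower in the culture, and Cdh2 more so, with 59.9 and 113 CPM (0.531, 0.487 to 0.578). Taken as the mean of CPM over cells, the Cdh2 ratio was 0.499, just past the 2-fold limit. Cdh1 was not tested, with 18 UMIs in the culture and 1 in the tail.

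Cells of the other connective clusters gave the same 2 genes. In proliferating tendon-like cells Zeb2 was 13.6-fold (11.5 to 16.1) and Snai2 6.56-fold (5.53 to 7.81) lower in the culture, where 18.1% of all genes differed by 2-fold (7.02% higher and 11% lower in the culture). Snai1 had a ratio of 0.609 there, and 0.480 after thinning. In cartilage-like cells Zeb2 was 13.8-fold (7.27 to 29.4; ratio 0.0726, and 0.0312 after thinning), Snai2 6.16-fold (4.84 to 7.93) and Snai1 3.09-fold (2.58 to 3.71) lower, where 19.4% of genes differed (7.39% higher and 12.0% lower). Zeb1 was 84.5 CPM in the culture and 62.3 CPM in the tail there (ratio 1.36, 1.13 to 1.63), and Epcam had a ratio of 0.995 that became 2.71 after thinning. At equal depth, Zeb2 was found in 5.51% of tendon-like cells of the culture and 28.9% of those of the tail, and Snai2 in 3.39% and 24.9%.

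**Figure D5:**
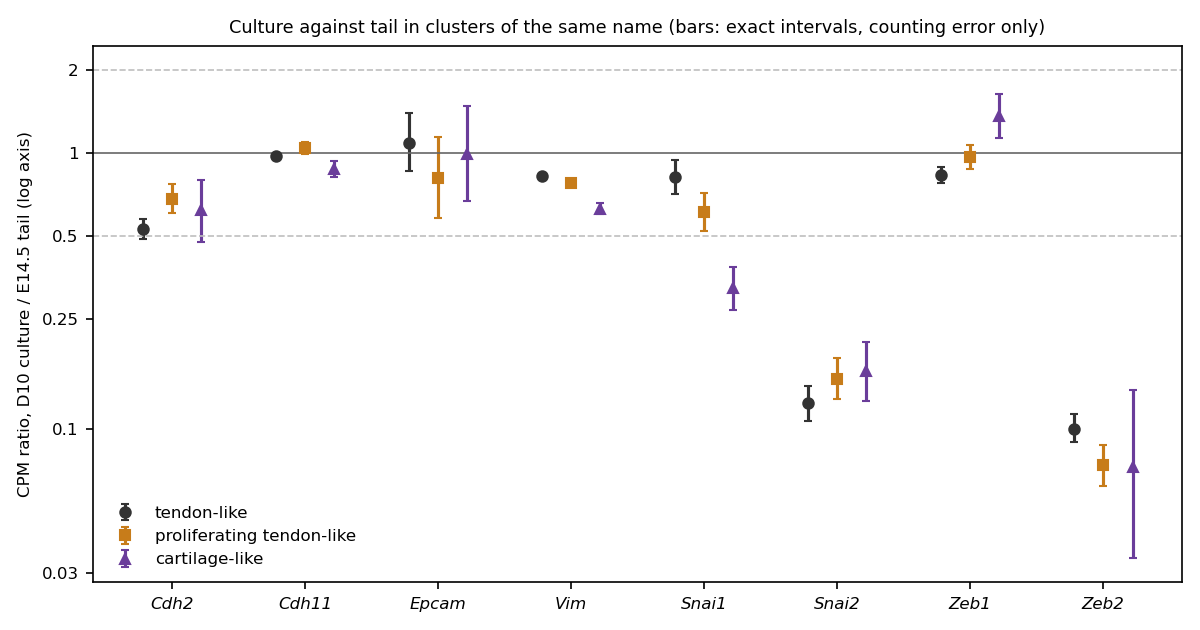
Ratio of CPM in the D10 culture over CPM in the E14.5 tail (y axis, log scale) for 8 genes in tendon-like, proliferating tendon-like and cartilage-like cells, with exact 95% intervals for counting error, the solid line at 1 and dashed lines at 2-fold. Snai2 and Zeb2 lie below 0.2 in all 3 comparisons, whereas Cdh11, Epcam and Zeb1 lie between 0.809 and 1.36.

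Endothelial-like cells were few, 58 in the culture and 71 in the tail. Zeb2 was 33.4 and 28.2 CPM (ratio 1.18, 0.547 to 2.35), so that a difference of the size found in tendon-like cells lay outside this interval. The ratio was 0.602 after thinning and 0.644 as the mean of CPM over cells. Snai2 had no UMI in the culture against 54 UMIs in the tail (38.1 CPM), at least 4.19-fold lower when 3 counts over the culture cluster were used as the floor. Cdh11 was 2.21-fold higher (1.18 to 4.01, 18 UMIs in the culture), with a ratio of 4.91 after thinning and 7.58 without called doublets. Other mesenchymal genes were higher with it, 4 of 8 tested regulators and 10 of 17 effectors with none lower. Examples were Twist1 (48.5 against 9.88 CPM), Prrx2 (63.7 against 3.53 CPM) and Fn1 (1301 against 179 CPM). Epithelial genes were higher too. Of 5 tested adhesion and junction genes, 3 were higher, such as Cldn4 (87.9 against 0.706 CPM), and 1 was lower, and the 1 tested keratin was higher. The summed level of 7 tendon markers was 943 CPM in the culture cluster and 136 CPM in the tail cluster, and the part of cells of another type in these values was not tested. Snai1 had a ratio of 1.95, which was 2.11 without called doublets and 3.43 as the mean of CPM over cells. Snai2 and Cdh11 were the 2 of 7 tested members that passed 2-fold, against 32.5% of all genes (18.4% higher and 14.1% lower). On counts simulated with counting error only, 874 of 9465 unchanged genes of this comparison were called.

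Genes with related roles were then counted in tendon-like cells of culture and tail. Among all genes of this comparison 12.9% were lower and 7.77% higher. Of 8 further mesenchymal regulators that were tested, 3 were at least 2-fold lower and 2 higher, with a median log2 ratio of -0.69 against -0.17 for all genes. Twist2 was 21.9 CPM in the culture and 122 CPM in the tail (5.55-fold lower) and Prrx2, a homeobox gene of mesenchyme, 23.5 and 167 CPM (7.11-fold lower), while Twist1 was 599 and 795 CPM. The forkhead gene Foxc1 was higher in the culture, with 244 against 36.3 CPM (ratio 6.71). Of 21 mesenchymal effector genes, 5 were higher and 2 lower (median 0.53), among them Fn1 (fibronectin; 2882 against 717 CPM). Of 6 other cadherins, 4 were lower and none higher, namely Cdh6 with 6.09 against 66.9 CPM, Cdh4 with 7.29 against 46.0 CPM, Cdh3 with 18.6 against 77.2 CPM, and Cdh8 with 1.39 against 16.4 CPM.

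The D10 culture as a whole held less Epcam and Zeb2 and more Cdh11 than D6 PM. Summed over all cells, Cdh11 was 342 CPM in the D10 culture and 36.7 CPM in D6 PM (ratio 9.30, 8.87 to 9.76), and Epcam 311 and 696 CPM (0.447, 0.439 to 0.455). Zeb2 was also lower, with 17.8 and 43.5 CPM (0.410, 0.380 to 0.443). These 3 of 9 members differed by at least 2-fold, against 15.7% of all genes tested (8.90% higher and 6.84% lower at D10). Zeb1 (ratio 1.90), Snai2 (1.87) and Snai1 (1.86) were higher and Vim (0.722), Cdh1 (0.605) and Cdh2 (0.537) lower, all within 2-fold. Under the mean of CPM over cells, Snai1 (2.13), Snai2 (2.28), Zeb1 (2.22) and Cdh1 (0.452) passed it too. Sums over all cells follow the shares of the clusters as well as the level within each, and the endoderm-like codes 1 and 3 held 42.6% and 13.8% of D6 PM cells.

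Summed over all cells, epithelial gene groups were lower and mesenchymal effector genes higher at D10. Among all genes 6.84% were lower and 8.90% higher at D10. Of 22 tested epithelial adhesion and junction genes, 16 were at least 2-fold lower and none higher (median log2 ratio -1.30, against 0.04 for all genes), and all 4 keratins were lower, as with Krt18 at 171 against 1219 CPM. Of 21 mesenchymal effector genes, 14 were higher and 1 lower (median 1.40). Smooth muscle actin (Acta2) was 207 CPM at D10 and 15 CPM at D6, and Col3a1 1022 and 188 CPM. These sums follow the shares of the clusters too. Within endoderm-like cells, 16 of 26 adhesion and junction genes were higher at D10 and none lower (14.7% and 6.78% of all genes). Within pluripotent-like cells, 1 of 20 was higher and 3 were lower (4.50% and 3.25% of all genes).

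Tendon-like cells at D10 were then set beside the paraxial mesoderm-like cells at D6, since the culture was directed to paraxial mesoderm up to day 6. Which D6 cluster is nearest to a source population was not measured. Zeb2 was 20.3 CPM in tendon-like and 121 CPM in paraxial mesoderm-like cells (5.97-fold lower, 5.24 to 6.81), Snai2 13.8 and 29.8 CPM (2.16-fold lower, 1.77 to 2.63), and Epcam 11.9 and 60.0 CPM (5.03-fold lower, 4.22 to 6.01). Krt18 and Krt8, which stood at nearly the same share of their endoderm-like level as Epcam in the paraxial mesoderm-like cells, were 6.98- and 5.48-fold lower in the same comparison. The Epcam call was lost without called doublets (ratio 0.537), and that of Snai2 relative to the median gene (0.513). Cdh11 was 3.12-fold higher (2.94 to 3.31). These 4 of the 8 tested members passed 2-fold, against 23.1% of all genes (11.6% higher and 11.5% lower). Zeb1 was 128 and 134 CPM (ratio 0.958, 0.883 to 1.04). Among the other genes, 18 of 20 mesenchymal effectors were higher and none lower in tendon-like cells, while Twist1 was 599 and 536 CPM. Descent of one population from the other was not measured.

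Endoderm-like cells of the 2 days differed in Cdh2, Zeb1, Zeb2, Vim and Cdh11. Cdh2 was 30.2 CPM at D10 and 116 CPM at D6 (3.82-fold lower, 2.69 to 5.64), and Cdh1 238 and 119 CPM (ratio 2.0, 1.74 to 2.28, just under the 2-fold limit before rounding, from 1.78 relative to the median gene to 2.26 as the mean of CPM over cells, and 2.03 after thinning). Zeb2 was 1.95 and 17.0 CPM, with only 2 UMIs at D10 (8.72-fold lower, 2.39 to 72.3). Zeb1 was 6.83 and 17.9 CPM (2.62-fold lower, 1.26 to 6.57), a ratio of 0.382, and 0.246 after thinning. Among thinned cells with an Epcam UMI (142 at D10 and 1411 at D6), Zeb1 was 4.69 and 5.91 CPM. The D10 value rests on only 2 UMIs, too few to place this ratio. Zeb2 was 0 and 5.20 CPM in these cells, and Cdh2 23.5 and 95.0 CPM. The 680 thinned D6 cells without an Epcam UMI held 44.1 CPM of Zeb1 and 47.1 CPM of Zeb2. Vim was higher at D10, with 1112 against 410 CPM (ratio 2.71, 2.55 to 2.89), as was Cdh11 (2.38, 1.41 to 3.81), whose ratio was 1.45 without called doublets. These 5 of 7 tested members passed 2-fold, against 21.5% of all genes (14.7% higher and 6.78% lower). All 26 epithelial adhesion and junction genes were tested, of which 16 were higher at D10 and none lower (median log2 ratio 1.33, against 0.17 for all genes). Of 19 mesenchymal effector genes, 12 were higher too and 1 lower (median 1.17), with Acta2 at 909 against 19.0 CPM and Tagln at 635 against 49.3 CPM. Of the 10 leading genes of each cluster, 1 (Pga5) was shared (the others included Gcg, Iapp and Pyy at D10, and Pomc, Rbp4 and Cfc1 at D6), so that a change within one cell type and a different kind of endoderm cannot be told apart.

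Pluripotent-like cells had the lowest share of genes past 2-fold of the comparisons between D10 and D6. None of the 4 tested members reached 2-fold, against 7.76% of all genes (4.50% higher and 3.25% lower). Cdh1 was 114 CPM at D10 and 61.0 CPM at D6 (ratio 1.86, 1.70 to 2.04, but 2.03 after thinning and 2.04 as the mean of CPM over cells, both past 2-fold), Epcam 786 and 426 CPM (1.85, 1.78 to 1.91), Vim 128 and 88.2 CPM (1.45, 1.34 to 1.57) and Zeb1 22.3 and 24.4 CPM (0.916, 0.773 to 1.09). Cdh1 and Epcam lay at the 94.5th and 94.3rd percentile of all tested ratios, among the higher ones. Cdh11 stayed under 10 CPM in both and was not tested, with 8.53 and 1.89 CPM (ratio 4.52, 2.85 to 7.45).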

How the data were processed

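The 3 libraries were made with the 10x Chromium 3′ v3 chemistry. The deposited tables hold UMI counts per gene and cell, which the authors obtained with Cell Ranger, ignoring multi-mapping reads, and filtered in Seurat 3.0 by mitochondrial share and by the lowest and highest transcript numbers. They also hold a cluster code per cell. The genome build of these counts is not given in the sources used here.

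Counts were summed per cluster and divided by their total to give CPM with Python 3.11.15, and intervals were taken from SciPy 1.17.1. Exact Poisson intervals were used for levels, Clopper-Pearson intervals for shares and conditional binomial intervals for ratios, all at 95% and for counting error only. A gene was tested if it reached 10 CPM in either group, and called at 2-fold, without a p-value. The rule was also run on counts simulated with Poisson counting error only, without variation between cultures or embryos. These runs therefore give no rate of false calls between conditions. Of 200 genes simulated to differ 4-fold, the rule recovered 200 in the tendon-like comparison, and it called 0 of 9455 unchanged genes. It called 21 of 9442 in the cartilage-like, 84 of 9457 in the endoderm-like and 874 of 9465 in the endothelial-like comparison. For detection, cells were thinned to 3000 UMIs, and 1157 cells of the culture, 100 of the tail and 1006 of D6 PM fell below this depth. Scrublet (expected doublet rate 6%) marked 116 culture, 9 tail and 81 D6 PM cells, which were removed only as an alternative. The named genes were the 9 members, the 3 genes nearest to each in pattern, and up to 4 genes per related list with the largest ratio at 50 CPM or more, with other cadherins and the E-box regulators Twist1, Twist2, Tcf3 and Tcf4. Members and lists were chosen with earlier results of these data known.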

Additional observations from a re-analysis of the deposited data

Results flagged for a closer look

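The Cdh2 ratio of proliferating tendon-like over tendon-like cells lay above 1 in the culture and below 1 in the tail. The culture interval starts at 1.0 and the CPM intervals of the 2 culture clusters overlap, so that no clear direction was seen in the culture. The ratio of proliferating over other tendon-like cells was 1.11 in the D10 culture (66.3 against 59.9 CPM, interval 1.0 to 1.22) and 0.860 in the E14.5 tail (97.0 against 113 CPM, interval 0.767 to 0.963). This difference was not tested, since each source had 1 library, and both ratios are within 2-fold.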

How the results depend on the processing

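No paired analysis was possible because each condition had 1 library. Depth limits detection, so that genes near 1 UMI per cluster have wide intervals, and all intervals leave out variation between cultures or embryos. No member ratio called at 2-fold changed direction in the alternatives run. The ratio of Epcam in cartilage-like cells, culture over tail, which was not called, went from 0.995 to 2.71 after thinning. Other calls lost or gained are given beside their results. Snai2 in pluripotent-like cells and Snai1 in endoderm-like cells, both D10 over D6, lay below 10 CPM and were not tested. Their ratios also crossed 2-fold. For Snai2 it was 0.779, and 0.425 after thinning. For Snai1 it was 0.554, and 0.493 relative to the median gene but 1.30 as the mean of CPM over cells. The cause of these changes was not tested.

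Thinning to 3000 UMIs (chosen after seeing the data for levels and shares) gave Cdh1 shares of 48.2% in D6 PM endoderm-like and 0% in tail tendon-like cells, which was also 0% without called doublets. Without called doublets the share in paraxial mesoderm-like cells was 1.98%. In tendon-like cells, culture over tail, ratios relative to the median gene were 0.598 for Cdh2, 0.932 for Vim and 0.113 for Zeb2. Thinning gave 0.858 for Vim and 0.0965 for Snai2, and leaving mitochondrial, ribosomal and haemoglobin genes out of the denominator gave 0.807 for Vim. Over all cells, D10 over D6, the mean of CPM over cells gave 0.452 for Cdh1, 10.4 for Cdh11 and 0.330 for Epcam, thinning 0.469, 10.2 and 0.317, the other denominator 8.86 for Cdh11 and 0.426 for Epcam, and the median gene 0.433 for Epcam. Cdh1 thus passed 2-fold under the first 2 of these, and so did Snai1, Snai2 and Zeb1 (2.45, 2.13 and 2.10 after thinning).

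The share of D6 PM endoderm-like cells with both cadherins was 2.07%, 10.2% and 15.2% at 1500 and 5000 UMIs and unthinned, and that of pluripotent-like cells 3.37% unthinned. Epcam with Vim was found in 60.0% and 86.0% of culture endoderm-like cells at 1500 and 5000 UMIs, and in 6.10% and 56.1% of tail epidermis-like cells at 1500 UMIs and unthinned.

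Counts of genes called follow the limits used. For tendon-like, proliferating tendon-like, cartilage-like and endothelial-like cells, culture over tail, they were 4016, 3582, 3854 and 5284 at 1.5-fold, 852, 660, 625 and 1171 at 4-fold, and 759, 627, 661 and 1263 at 50 CPM. With at least 1 UMI the first 3 were 7992, 6684 and 5427. For all, pluripotent-like and endoderm-like cells, D10 over D6, and tendon-like over paraxial mesoderm-like cells, they were 3047, 1852, 4005 and 4303 at 1.5-fold, 548, 160, 760 and 936 at 4-fold, 637, 188, 770 and 921 at 50 CPM, and 6528, 4928, 5402 and 7425 with at least 1 UMI.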
